A study of Mus musculus with 9 samples.

Results

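The large olfactory receptor cluster of mouse chromosome 2 was described by the StyI fragments whose midpoint lies in the 47 windows of 100 kb that begin at 85200001 in the mm9 build, a stretch of 4.7 Mb. The first of these fragments starts at 85199832 and the last ends at 89896986. StyI is a restriction enzyme, and the fragments between its neighbouring sites are the units that were counted. By this rule 4349 of the 3053721 counted fragments of the genome belong to the cluster (0.142%), and they were chosen by position alone. The 2 Mb on each side served for comparison, with 2464 fragments before the cluster (the left flank) and 2549 after it (the right flank). All samples came from E14Tg2a, a line of mouse embryonic stem cells with a 129P2 background, cultured in the presence of LIF, a cytokine that keeps such cells undifferentiated. No treatment or genotype distinguished the samples. In HRS-seq (high-salt recovered sequences) nuclei are extracted at high salt and digested with StyI, and the DNA that stays with the insoluble material (HRS) is parted from the DNA that is released (Loop). There were 3 HRS libraries, 3 Loop libraries and 3 libraries of input genomic DNA titled D0, D12 and D21, names that the labels do not explain. No label states whether the replicates were cultured separately, and the p-values reflect the spread among these libraries, which may be technical.

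Olfactory receptors are the G protein-coupled odorant receptors of olfactory sensory neurons. Their genes stand in long tandem clusters together with many pseudogenes, and a mature neuron expresses a single allele of a single receptor gene while the rest of the family stays silent in condensed chromatin. In embryonic stem cells the receptor family is taken to be silent, and expression was not measured here. The cluster is a long stretch of gene-dense but GC-poor DNA that also holds a few other genes. Its repeated gene duplications leave many stretches of near-identical sequence.

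The HRS, Loop and input counts rest on StyI sites and on short tags next to them. StyI cuts at CCATGG. It also cuts where a strand reads CCTAGG. The remaining form of the site is CCAAGG. On its opposite strand this form reads CCTTGG. Both strands were searched. Promoters of genes in and at the edges of the cluster show how thinly such sites are spread and how duplicated copies look. In the RefSeq gene order (GRCm38.p6) 334 entries lie between Lrrc55 and Ptprj, the genes taken here as its neighbours, and 293 of them are olfactory receptor genes (Olfr). Of these, 222 are listed as protein coding, 67 as pseudogenes and 4 as transcribed pseudogenes. The 3 other protein-coding entries are Fads2b, Pramel7 and Pramel6. RefSeq promoters of 300 bases (250 before the start and 50 after it) were found for 193 of these symbols, 198 promoters in all. A StyI site was present in 45 of them (22.7%), against 34.5% of all 32851 mouse promoters of the same length. Their median GC content was 32.3%, against 52.7% over all promoters. A site at these positions is a match of letters and does not place a counted fragment, since the genes' mm9 positions were not determined.

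The Olfr1200 promoter was the only one of the 198 with 3 StyI sites, here in capitals. Its 250 bases before the start lie at chr2:88768314-88768563 (GRCm38.p6, minus strand):
Olfr1200: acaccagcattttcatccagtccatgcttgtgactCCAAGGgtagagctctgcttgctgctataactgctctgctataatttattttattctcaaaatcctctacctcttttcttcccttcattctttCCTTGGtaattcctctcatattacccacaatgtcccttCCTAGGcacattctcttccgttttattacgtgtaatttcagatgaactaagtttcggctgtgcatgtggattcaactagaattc
The sites begin at bases 36, 129 and 167 and so bound fragments of 93 and 38 bp. An adjoining pair of fragments of 38 and 93 bp occurred once among the cluster's fragments and 6 times in the genome, so the pair in the cluster was matched to this promoter by length alone. The fragment of 93 bp (mm9 88608589 to 88608682) held 24, 27 and 20 counts in HRS replicates 1, 2 and 3. It held 79, 74 and 57 counts in the Loop replicates and 33, 37 and 30 in D0, D12 and D21. Every Loop library thus lay above every HRS library in raw counts, with a log2 HRS over Loop of -1.39 ± 0.36 (SE; edgeR adjusted p = 0.00262). With fragment length corrected (below) it was -0.30, with an adjusted p of 0.60. The neighbour of 38 bp (88608551 to 88608589) held 7, 16 and 3 counts in HRS and 15, 55 and 1 in Loop and was listed at 0 in all 3 inputs. Its groups overlapped, and it was not called (adjusted p = 0.104).

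The duplicated copies at the far end of the gene order show sequence that is the same in more than 1 place. Olfr1506 and Olfr1565 are at places 325 and 331 of the 334 entries (chr2:90224472-90224721, minus strand, and chr2:90321972-90322221, plus strand, GRCm38.p6), and their 300-base promoters were identical and held no StyI site. The noncoding genes Gm38718 and Gm39869 at places 324 and 332 (chr2:90192794-90193043, plus strand, and chr2:90353650-90353899, minus strand) also shared 1 promoter, with a StyI site at base 58 in capitals. In GRCm38.p6 these 4 genes lie 1.42 to 1.59 Mb beyond the Olfr1200 promoter, whereas the right border is 1.29 Mb beyond the fragments matched to it in mm9. If that match and the spacing hold, they lie in the right flank, as would 18 of the 334 entries, while 4 would lie in the left flank. Of the 198 promoters 17 would then lie past a border. The 250 bases before the start are given for 1 gene of each pair:
Olfr1506: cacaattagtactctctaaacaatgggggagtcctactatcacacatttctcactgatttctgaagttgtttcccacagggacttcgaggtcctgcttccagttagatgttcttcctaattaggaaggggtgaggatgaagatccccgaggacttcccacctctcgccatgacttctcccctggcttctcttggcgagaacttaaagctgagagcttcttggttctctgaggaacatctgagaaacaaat
Gm38718: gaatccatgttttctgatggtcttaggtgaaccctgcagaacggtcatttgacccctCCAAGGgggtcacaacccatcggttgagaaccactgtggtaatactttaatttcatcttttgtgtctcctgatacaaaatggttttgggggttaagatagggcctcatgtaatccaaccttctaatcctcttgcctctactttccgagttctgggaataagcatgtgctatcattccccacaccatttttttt
Over all 198 promoters the sites gave 87 distinct tags of 20 bases, of which 3 (3.45%) occurred in more than 1 gene. Both tags of the Gm38718 site were among these 3, and the other one, in the promoters of Olfr1272 and Olfr142, was this:
Olfr1272 and Olfr142: CCATGGccaacaaaaataat

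The libraries held between 39.1 and 62.9 M counts, with HRS replicate 3 the shallowest. HRS replicate 3 also stood apart from the other HRS libraries. Over 25400 windows of 100 kb its chi-square per window was 31.5 against HRS replicate 1 and 35.5 against replicate 2, while replicates 1 and 2 differed from each other by 5.90. Where leaving it out changed a call or a count of calls named here, the value without it is given, with some exceptions. These are the counts of flank windows, of length-corrected bins and of single fragments lower in HRS. Single fragments were not refitted without it with length corrected.

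Within the cluster StyI fragments were sparser and longer than around it, and more of them were never seen. The density was 0.925 fragments per kb, against 1.23 in the left flank, 1.27 in the right flank and 1.18 in the genome. The median length was 695 bp, against 508 bp, 493 bp and 539 bp. Fragments over 2000 bp made up 15.5% of the cluster and 9.57% of the genome, and the longest had 11902 bp. In the cluster 1323 fragments (30.4%) had no count in any of the 9 libraries, against 19.8% in the left flank, 17.9% in the right flank and 16.4% in the genome. Since input libraries were among these 9, the gap was not particular to a fraction. A fragment that was counted held a median of 86 counts summed over the libraries, against 171 and 204 in the flanks and 151 in the genome.

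The cluster's level was under that of the genome in all 3 kinds of library. It took 701, 699 and 539 CPM (counts per 1000000 counts of the library) in the HRS libraries, 673, 661 and 606 CPM of the Loop libraries, and 662, 705 and 773 CPM of D0, D12 and D21. HRS replicate 3 was the lowest of the 9 and D21 the highest, and the 3 groups overlapped. Per fragment the mean of the 3 libraries was 0.149 CPM for HRS (SD 0.021), 0.149 for Loop (SD 0.008) and 0.164 for input (SD 0.013). The mean over the genome was 0.327, so the cluster stood at 45.4% of it in HRS, 45.4% in Loop and 50.1% in input. Over counted fragments alone these shares were 54.6%, 54.6% and 60.2%. The input shares were the highest of the 3. Exact two-sided permutation tests on CPM gave p = 1 for HRS against Loop, 0.4 for HRS against input and 0.2 for Loop against input (adjusted over 6 tests 0.6 to 1). With 3 libraries against 3 the smallest possible p is 0.1, so these tests could not pass 0.05 and do not show that the groups were alike.

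**Figure D1:**
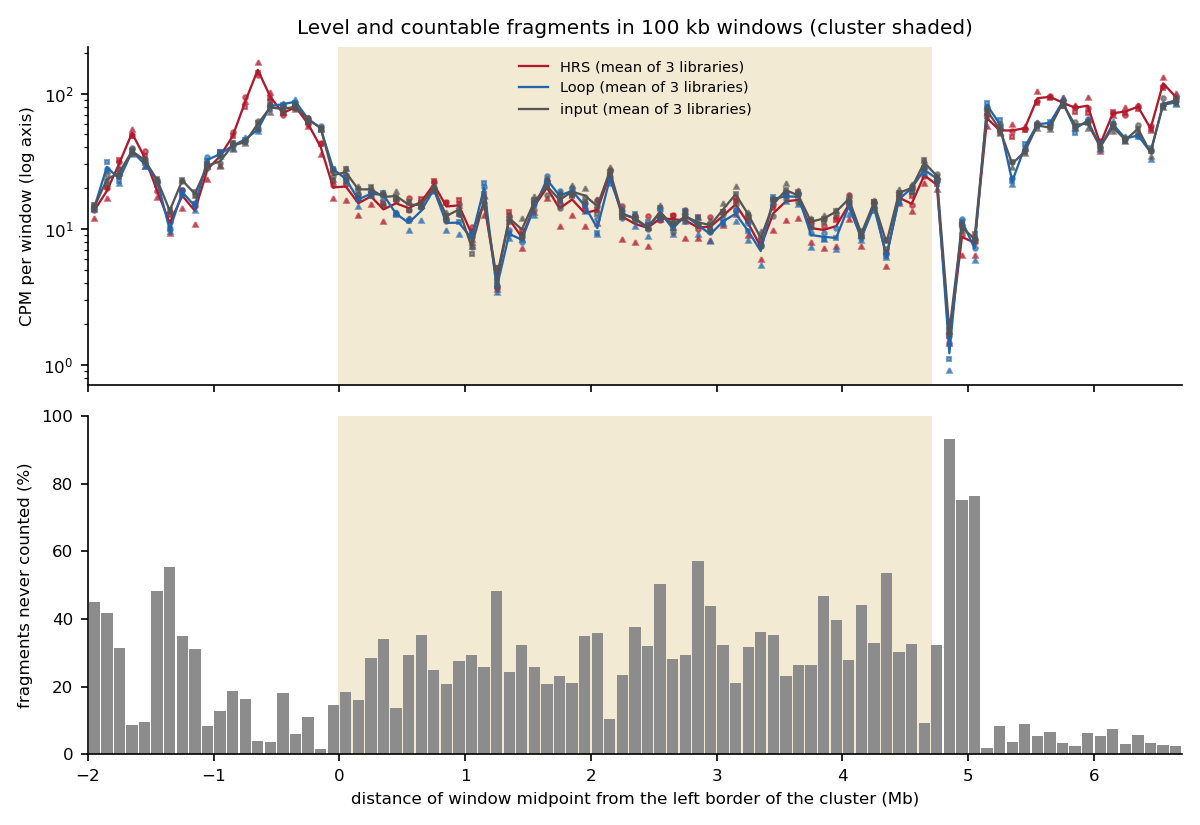
CPM in windows of 100 kb along the cluster (shaded) and its flanks, on a log axis; lines are group means, points are libraries, and the lower panel gives the percentage of fragments never counted, all against the distance from the left border in Mb. The level inside the shaded stretch runs from 4.17 to 25.3 CPM in HRS. The HRS line runs near the Loop and input lines there and rises above both in parts of the flanks.

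Because Loop libraries counted more short fragments, each count was also divided by an expected count. This was each fragment's own count summed over the 9 libraries, shared among them by their counts on fragments of its length. The ratio therefore compares libraries with each other, and a value near 1 does not mean that the cluster reached the genome's level. This observed-over-expected ratio was 1.01, 1.00 and 0.792 in the HRS replicates, 1.05, 1.04 and 1.00 in Loop and 0.952, 1.01 and 1.09 in D0, D12 and D21. The means of 3 libraries were 0.934 for HRS (SD 0.123), 1.03 for Loop (SD 0.022) and 1.02 for input (SD 0.071). These groups overlapped, and exact two-sided permutation tests gave p = 0.2 for HRS against Loop, 0.5 for HRS against input and 0.9 for Loop against input. In the flanks the HRS libraries stood apart from both others. The left flank had 1.11 ± 0.013 in HRS against 0.953 ± 0.012 in Loop and 0.961 ± 0.026 in input. The right flank had 1.18 ± 0.047 in HRS against 0.928 ± 0.006 and 0.928 ± 0.039 (SD, n = 3 each).

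**Figure D2:**
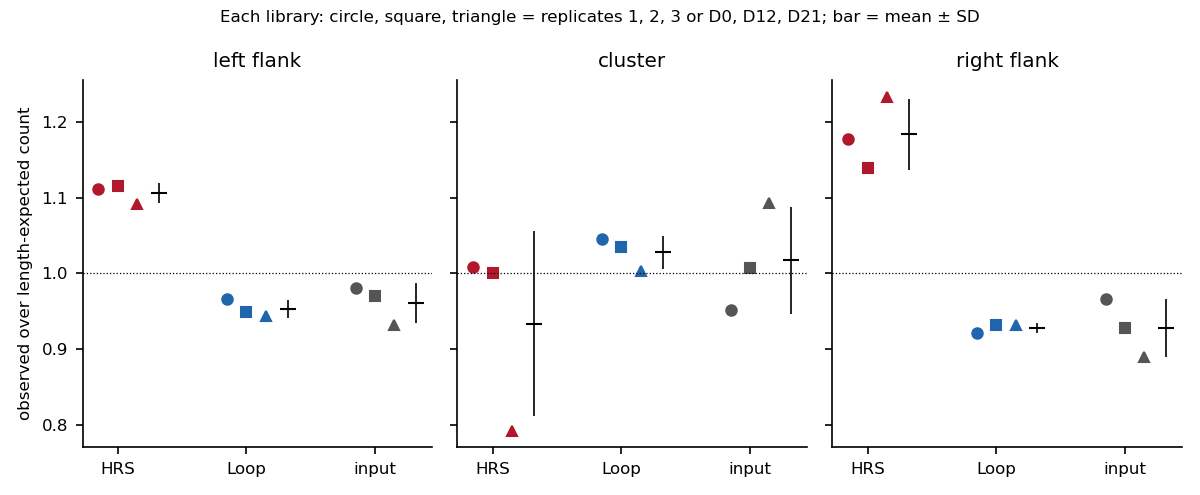
Observed count over the count expected from fragment length and the pooled counts of the 9 libraries, for each library in the left flank, the cluster and the right flank. Points are libraries, and bars give the mean and SD of 3. The ratio compares libraries and not the level of the cluster with that of the genome. HRS lies above Loop and input in both flanks, at 1.11 and 1.18, whereas the cluster values of the 3 groups overlap and HRS replicate 3 is lowest at 0.792.

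Fitted as 1 region beside the rest of the genome in 2 Mb regions, the cluster was called in no comparison. HRS over Loop had a log2 ratio of 0.02 ± 0.07 (SE; edgeR adjusted p = 0.864), where 16.8% of 1306 regions were called higher and 16.8% lower in HRS. With length corrected it was -0.06 ± 0.06 (adjusted p = 0.432), beside 20.8% higher and 15.1% lower. HRS over input had -0.07 ± 0.08 (adjusted p = 0.524), beside 22.1% and 14.3%. Loop over input had -0.11 ± 0.05 (adjusted p = 0.178); there edgeR called 0.0% of regions in either direction, although 428 had an unadjusted p under 0.05. Without HRS replicate 3 the ratio of HRS over Loop was 0.10 (adjusted p = 0.0389), and it was 0.06 (adjusted p = 0.0260) without both libraries of replicate 3. With length corrected as well it was 0.01 and -0.01. Without D0 the ratio of Loop over input was -0.16 (adjusted p = 0.0414). The flanks, in the same fits, were higher in HRS than in Loop by a log2 ratio of 0.22 ± 0.04 on the left (adjusted p = 0.0053) and 0.37 ± 0.07 on the right (adjusted p = 0.0059). Both were higher in HRS than in input too, by 0.29 (adjusted p = 0.0012) and 0.44 (adjusted p = 0.0018).

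Set against its flanks within each library, a ratio free of the scaling between libraries, the cluster was lower in HRS than in Loop or input. The log2 ratio of cluster over flank counts was -1.62, -1.60 and -2.03 in HRS, -1.40, -1.43 and -1.57 in Loop, and -1.46, -1.33 and -1.14 in D0, D12 and D21. All 3 HRS libraries lay below all 6 others. The HRS mean was lower than the Loop mean by 1.22-fold and than the input mean by 1.36-fold (exact two-sided permutation p = 0.1 for each, adjusted 0.15 over 6 tests, where 0.1 is the smallest possible with 3 libraries against 3). With length corrected these folds were 1.35 and 1.33, again without overlap. Loop and input overlapped (exact p = 0.3; 0.7 with length corrected). Over the 3 pairs of the same replicate number, the log2 difference of HRS from Loop ran from -0.47 to -0.17 (exact sign-flip p = 0.25, the smallest possible).

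The size of this difference depended on what the cluster was set against, and the separation from Loop also on the cluster's borders. Against the rest of chromosome 2 in place of the flanks, HRS and Loop differed by a log2 of -0.0025 (exact p = 1), and the groups overlapped. Against the left flank alone the difference was -0.20 with overlap (exact p = 0.3), and against the right flank alone -0.35 without. With the cluster trimmed by 200 kb at each end, HRS differed from Loop by -0.26 with overlap (exact p = 0.3). From input it then differed by -0.41 without overlap. HRS replicate 3 carried much of the difference against both flanks. Without that library the log2 difference of HRS from Loop was -0.15 in place of -0.29, and that of HRS from input -0.30 in place of -0.44.

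The low value of HRS replicate 3 ran through nearly the whole cluster, while the orders of the Loop and input libraries held in part of it. The cluster has 47 windows of 100 kb, with medians of 448 to 880 counts per window over the libraries. HRS replicate 3 was the lowest of the 3 HRS libraries by CPM in 46 of the 47, against 66.9% of windows in the genome and 23 of 40 in the flanks. Its median observed-over-expected ratio was 0.799, with 46 windows under 1, while replicates 1 and 2 had medians of 1.01 and 1.00. D0 was the lowest and D21 the highest of the inputs in 30 of 47 windows, against 30.3% in the genome and 2 of 40 in the flanks. Their median ratios were 0.944 in D0, 1.00 in D12 and 1.09 in D21. Loop replicate 3 was the lowest of the Loop libraries in 37 of 47 windows, against 55.2% in the genome and 18 of 40 in the flanks. The median coefficient of variation of this ratio per window was 14.6% in HRS, 5.22% in Loop and 7.75% in input, against 9.58%, 3.56% and 5.03% in the genome. It was 4.44% in HRS without replicate 3, against 3.63% in the genome. The cluster's windows also held fewer counts than those of the genome, whose medians ran from 1089 to 2118.5 over the libraries, and the part of counting error in the spread was not tested. What sets HRS replicate 3, or D0 and D21, apart was not tested.

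**Figure D3:**
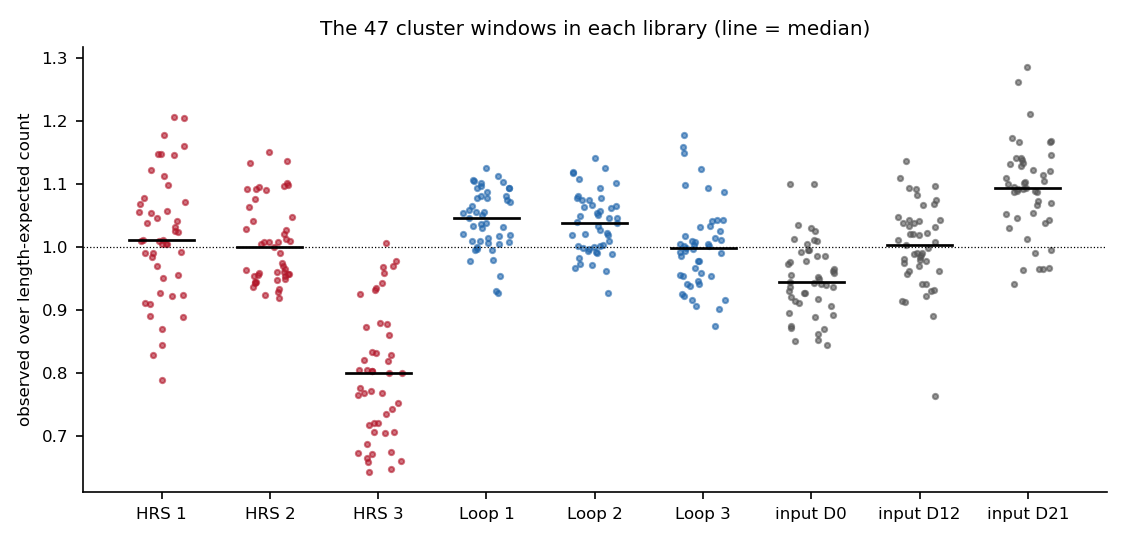
Observed over expected count (from fragment length and the pooled counts of the 9 libraries) of the 47 cluster windows of 100 kb in each library. Each point is a window and the line is the median. HRS replicate 3 has its median at 0.799, D21 at 1.09 and D0 at 0.944, and the other libraries lie near 1.

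Window by window, the ratio of HRS over Loop fell with the share of counts on short fragments. Without length correction 10 of the 47 windows were higher in HRS than in Loop and 3 were lower (edgeR adjusted p under 0.05), where 24.0% of all 25400 windows were higher and 25.5% lower. With length corrected 2 were higher and 2 lower, beside 24.0% and 21.2% of all windows, and all 4 had been called without it. The replicate number as a block gave 15 higher and 5 lower, and 2 and 3 with length corrected. Leaving out a library moved the counts of higher and lower windows: to 17 and 3 without HRS replicate 3, to 7 and 2 without HRS replicate 1, to 6 and 1 without Loop replicate 3. Without Loop replicates 1 or 2 they were 8 and 1 or 7 and 1. With length corrected, 8 were higher and 2 lower without HRS replicate 3, against 0 or 1 higher and 0 to 4 lower when any other library was left out. For the block and for fits without a library, the share of all windows called is not given here. A change in the cluster alone therefore cannot be told from a change over the genome. Across the 47 windows the uncorrected log2 ratio fell with the share of counts on fragments of up to 200 bp (Pearson r = -0.79, Spearman rho = -0.80). With length corrected these were -0.15 and -0.18. With the median fragment length of the window the ratio rose (r = 0.463, rho = 0.486), and with length corrected this was r = 0.365 and rho = 0.342. The windows are from the same libraries and both measures use their counts, so the correlations are descriptions.

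With length corrected, the windows highest in HRS over Loop stood together near the left border. Without correction the highest was at 87200001 to 87300000, 2.0 Mb from the border (log2 0.51 ± 0.13, adjusted p = 0.008), where the corrected ratio was 0.11 (adjusted p = 0.44). The window at 86000001 to 86100000 held 16.0, 15.6 and 12.5 CPM in HRS, 11.5, 12 and 9.84 in Loop and 11.7, 12.6 and 13.3 in D0, D12 and D21. By CPM every HRS library was above every Loop library there, while HRS replicate 3 lay within the inputs. By the observed-over-expected ratio HRS (1.18, 1.13 and 0.978) and Loop (0.977, 0.997 and 1.09) overlapped. The window's HRS over Loop log2 ratio was 0.47 ± 0.10, or 0.25 ± 0.08 with length corrected (SE, adjusted p = 0.0336). The window at 85800001 to 85900000 held 15.8, 16.8 and 15.0 CPM in HRS and 14.6, 14.6 and 11.7 in Loop, with a corrected log2 of 0.24 ± 0.07 (adjusted p = 0.0248). HRS and Loop overlapped by the observed-over-expected ratio in this window too. The window at 86100001 to 86200000 had 0.49 ± 0.12 without correction (adjusted p = 0.0047), and 0.21 ± 0.08 with it (adjusted p = 0.0634). The corrected ratios of these 3 windows without HRS replicate 3 were 0.28, 0.23 and 0.23, and the third was then called too (adjusted p = 0.0354). All 3 windows belong to a run of 7 adjoining windows, 0.4 to 1.1 Mb from the border, with corrected ratios above 0 (0.09 to 0.25). A run of 8 such windows lay 2.0 to 2.8 Mb from the border, with ratios of 0.03 to 0.19 and no call.

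The windows lowest in HRS over Loop by corrected ratio stood near either border. Without correction 86300001 to 86400000, 1.1 Mb in, was second lowest (-0.31 ± 0.11, adjusted p = 0.0339; -0.02 with length corrected), and 88600001 to 88700000 came after it (-0.29, adjusted p = 0.0603). The window at 89700001 to 89800000 held 15.0, 17.5 and 13.7 CPM in HRS and 19.7, 18.8 and 21.7 in Loop, without overlap, and 20.7, 18.7 and 20.8 in D0, D12 and D21. Its HRS over Loop log2 ratio was -0.32, and -0.27 ± 0.08 with length corrected (adjusted p = 0.0233). The window at 85500001 to 85600000 held 14.9, 15.6 and 11.5 CPM in HRS and 18.0, 18.4 and 17.2 in Loop, a corrected log2 of -0.23 ± 0.08 (adjusted p = 0.0391). The first window of the cluster, 85200001 to 85300000, had -0.22 ± 0.10 (adjusted p = 0.0897), and HRS replicate 3 was the low value there with 16.3 CPM, against 21.5 and 24.1 in the other HRS libraries. Its uncorrected ratio was -0.12, and without HRS replicate 3 the ratios were -0.02 uncorrected and -0.12 corrected (adjusted p = 0.128). The other 2 windows were then -0.23 and -0.16 with length corrected and kept their calls (adjusted p = 0.0302 and 0.034).

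**Figure D4:**
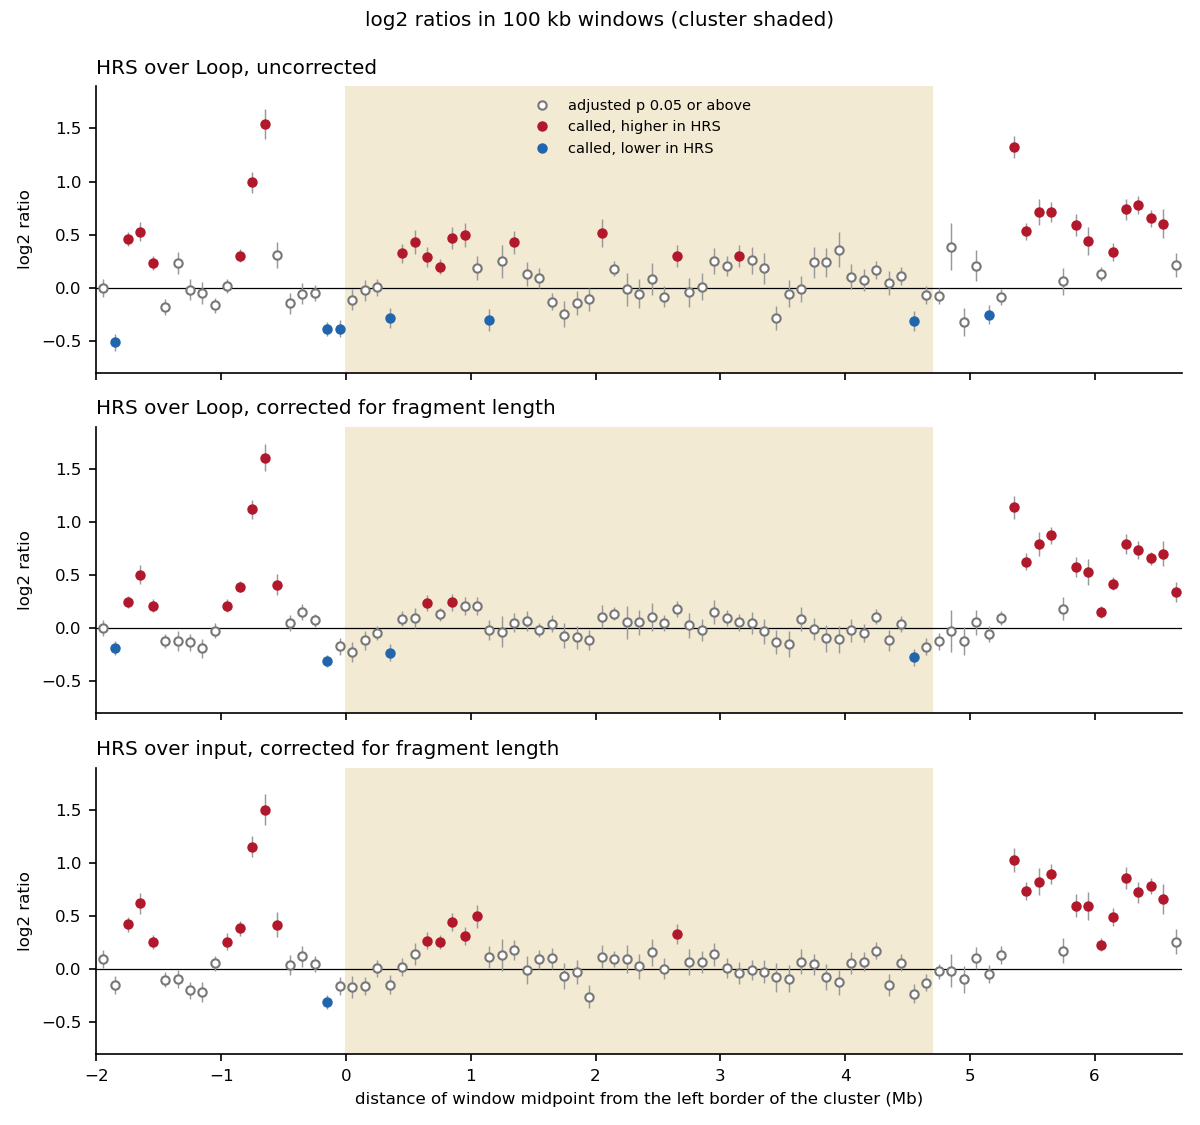
Log2 ratio of HRS over Loop without and with correction for fragment length, and of HRS over input with it, in windows of 100 kb against the distance from the left border in Mb; bars are SE, the cluster is shaded, filled red and blue points are called higher and lower (adjusted p under 0.05), and open points are not called. Inside the cluster the corrected ratio over Loop stays between -0.27 and 0.25, and the left flank reaches 1.61.

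Compared with input, 6 of the 47 windows were higher in HRS and 0 lower (edgeR), beside 25.1% and 16.8% of all windows. Of the 47, 8 had an unadjusted p under 0.05, and DESeq2 called 2 windows lower. With length corrected the same 6 windows were called, beside 25.4% and 17.6%. Of these, 5 adjoin each other from 85800001 to 86300000, with corrected log2 ratios of 0.27, 0.26, 0.45, 0.31 and 0.50, and the sixth is at 87800001 to 87900000 (0.33). Both windows called higher than Loop with length corrected are in this group of 5. None of the 6 was called when library totals replaced TMM scaling, which moved the median log2 ratio of the cluster's windows from 0.03 to -0.14 and that of all windows from 0.0047 to -0.17. Without correction, leaving out D12 left 1 window higher, D0 or D21 2, HRS replicate 1 or 2 3, and without HRS replicate 3 there were 8. With length corrected 3 were left without D12 and 9 without HRS replicate 3.

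Windows were called between Loop and input without length correction, and none with it. Loop was lower than input in 8 of the 47 windows and higher in 1 (edgeR), beside 13.7% and 13.1% of all windows. The log2 ratio rose with the share of counts on short fragments (r = 0.87, rho = 0.85, over 47 windows of the same libraries). With length corrected edgeR called 0 in either direction, beside 0.0315% higher and 0.0118% lower of all windows, with 2 of 47 at an unadjusted p under 0.05. Without D21 5 windows were lower and 2 higher, and without Loop replicate 3 9 were lower and 2 higher, with no length correction.

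Few cluster windows kept the groups apart in every library. By CPM, which uses library totals, all HRS libraries lay above all Loop libraries in 5 of the 47 windows and below them in 3, beside 22.2% and 35.6% of all windows. They lay above all inputs in 0 and below them in 7, beside 20.1% and 42.9%. Loop lay above input in 1 and below it in 19, beside 15.6% and 28.3%. By the observed-over-expected ratio HRS lay above Loop in 0 windows and below it in 11, beside 20.0% and 47.6%. It lay above input in 2 and below it in 7, beside 20.6% and 42.6%. Loop lay above input in 3 and below it in 0, beside 7.41% and 6.69%. With the exception of Loop below input by CPM, the cluster's share was under that of all windows in each of these orders.

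The cluster's profile was flat. With length corrected the log2 ratio of HRS over Loop had a standard deviation of 0.12 across the 47 windows, against 0.44 across the 40 flank windows and 0.36 across the genome. No cluster window went beyond 0.27 in size, which 18 of the 40 flank windows (45%) and 9003 of 25400 windows in the genome (35.4%) did. The median standard error of a window's ratio was 0.0935 in the cluster and 0.0779 in the genome. HRS over input gave 0.16, 0.43 and 0.37 for the same standard deviations, while Loop over input gave 0.08, 0.06 and 0.10. The median corrected ratio of HRS over Loop was 0.04 in the cluster and -0.02 in the genome. No test of the difference in spread was made.

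In the flanks more windows were called than in the cluster, and the ratios were larger. On the left 6 of 20 windows were higher in HRS than in Loop and 3 lower, or 8 and 2 with length corrected. On the right 11 of 20 were higher and 1 lower, or 13 and 0 with length corrected. Of all windows 24.0% were higher and 25.5% lower, or 24.0% and 21.2% with length corrected. The highest window of the left flank, 84500001 to 84600000, held 137, 142 and 170 CPM in HRS, 55.8, 53.5 and 53.3 in Loop and 62.7, 60.6 and 55.9 in input. Its corrected log2 was 1.61 ± 0.13 (adjusted p = 9.1e-05), and HRS replicate 3 was the highest HRS library here. The highest on the right, 90500001 to 90600000, had 1.14 ± 0.11 (adjusted p = 1.57e-04).

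At the borders the level and the ratio did not step at the same place. On the left, HRS fell from 79.8 CPM in the window at 84800001 through 59.7 and 40.5 to 20.3 CPM in the last window before the cluster, and the first cluster window had 20.6. The corrected log2 ratio of HRS over Loop was above 0 in the first 2 of these windows (0.155 and 0.0745, neither called). It was -0.31 ± 0.06 (adjusted p = 0.0028) at 85000001 to 85100000, the lowest of the left flank, and -0.17 (adjusted p = 0.102) in the last. On the right the low level went on past the border. The first right window, 89900001 to 90000000, had a corrected log2 of -0.12 (adjusted p = 0.22), the lowest of that flank. The next 3 windows, from 90000001 to 90300000, had 93.3%, 75.2% and 76.4% of their fragments never counted, more than any cluster window, and HRS levels of 1.51, 8.76 and 7.91 CPM. In the window at 90300001 only 1.92% were never counted, and HRS held 65.6 CPM.

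Inside the cluster the level varied by more than the ratios did. The window at 86400001 to 86500000 was the lowest in all 3 groups (4.17 CPM in HRS libraries, 3.69 in Loop libraries, 4.39 in inputs), and 1 fragment held 15.2% of its counts. The highest HRS level, 25.3 CPM, was at 87300001 to 87400000. The share of fragments never counted ran from 9.26% at 89800001 to 57.1% at 88000001. By stretches of 1 Mb from the left border it was 25.1%, 27.5%, 35.9% and 32%, and 32.1% in the last 0.7 Mb. The HRS level per window in these 5 stretches was 16.4, 12.8, 12.9, 12.2 and 14.7 CPM. Across the 47 windows the share never counted showed no relation to the corrected ratio of HRS over Loop (r = -0.06, rho = -0.06).

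By fragment length the cluster showed the contrast between fractions that the genome showed, at a lower level. Fragments of up to 200 bp took 21.5%, 22.1% and 23.9% of the cluster's counts in HRS, 39%, 44.8% and 49.8% in Loop and 19.9%, 21.1% and 20.7% in D0, D12 and D21. Every Loop library lay above every HRS library, and every HRS library above every input library (exact two-sided permutation tests, p = 0.1 in all 3 comparisons before and after adjustment, the smallest possible). The means of 22.5%, 44.5% and 20.5% were lower than those of the genome (30.1%, 51.7% and 26.3%), and 18.9% of cluster fragments were that short, against 23.4% in the genome.

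Per fragment, the Loop level fell more with length than the HRS and input levels. Fragments of up to 100 bp held 0.149 ± 0.017 CPM each in HRS libraries, 0.389 ± 0.060 in Loop libraries and 0.149 ± 0.020 in inputs (SD, n = 3 each). Those over 2000 bp held 0.126 ± 0.025, 0.0754 ± 0.022 and 0.134 ± 0.019. In both classes HRS and Loop did not overlap, and the log2 ratio of their means ran from -1.39 to 0.75 across the length classes of the cluster. The cluster was under the genome's value in every class: at 0.39 to 0.63 of it in HRS, 0.45 to 0.70 in Loop and 0.45 to 0.64 in input. Its low level was therefore not confined to a length. The share never counted was also above the genome's in every class, most in the class that ends at 200 bp and starts over 100 bp (45.4% against 19.9%) and least for those over 2000 bp (14.2% against 8.85%).

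**Figure D5:**
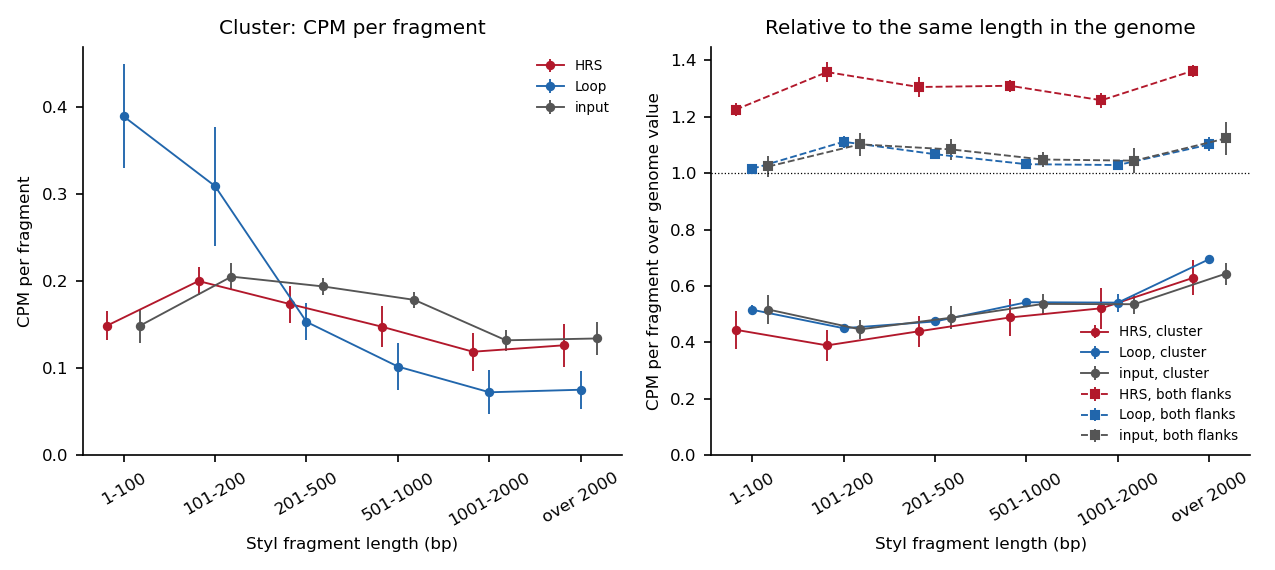
CPM per fragment by StyI fragment length in the cluster (left), and the same divided by the genome's value for that length in the cluster and in both flanks (right); points are means and bars SD of 3 libraries. Loop falls from 0.389 to 0.0754 CPM in the cluster, and in every length class the cluster lies under the genome and the flanks, which lie above 1.

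At 10 kb, 446 of the cluster's 470 bins could be tested, and 45 were higher in HRS than in Loop and 51 lower, beside 17.9% and 20.4% of all bins. With length corrected these counts were 7 and 11, beside 14.9% and 8.47%. Without HRS replicate 3 the uncorrected counts were 60 and 45, and leaving out any other library gave 20 to 28 higher and 37 to 48 lower. The bin with the largest ratio, 87900001 to 87910000, has 3 fragments. It held 29, 18 and 21 counts in HRS, 7, 8 and 3 in Loop and 10, 15 and 10 in D0, D12 and D21. Its log2 was 2.25 ± 0.50, or 1.65 ± 0.44 with length corrected (adjusted p = 0.014), so it kept its call at low counts. This bin passed the filter on low counts through HRS alone. The bins at 86690001 (1.79, corrected 1.36) and 86070001 (1.52, corrected 0.92) followed, and both were also called with length corrected. The bin at 86070001 lost its call with length corrected when HRS replicate 3 was left out (0.83, adjusted p = 0.0544).

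In the bins highest in Loop a large share of the counts was on 1 short fragment each. The bin at 85530001 to 85540000 held 78, 92 and 37 counts in HRS, 250, 318 and 232 in Loop and 131, 111 and 131 in input, without overlap of HRS and Loop. A fragment of 60 bp held 42.0% of its counts, and its log2 of -1.64 became -0.68 with length corrected (adjusted p = 0.012). In the bin at 89550001 to 89560000 a fragment of 48 bp held 52.8%, and its log2 of -1.64 became -0.88 (adjusted p = 0.0657). In the bin at 86470001 to 86480000, with a fragment of 147 bp at 40.4%, it went from -1.31 to -0.95 (adjusted p = 0.0074).

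Of the 4349 fragments, 1329 passed the filter on low counts and could be tested singly and the others held too few counts or none. The filter could be passed through 1 group alone, so some called fragments entered only by the group where they were high. Among the 1329, 24 were higher in HRS and 204 lower, beside 8.0% and 14.8% of the 1744841 fragments tested in the genome. The 24 had a median length of 1402.5 bp and none was up to 200 bp, whereas the 204 had a median of 80 bp and 197 were up to 200 bp. All 1329 tested had a median of 416 bp, and 363 of them (27.3%) were up to 200 bp. Lengths of the fragments called over the genome are not given here, so this is not shown to be particular to the cluster. With length corrected 2 were higher and 18 lower, beside 4.3% and 1.39%, and 18 of these 20 had been called before. Without HRS replicate 3 the uncorrected fit called 37 higher, and without HRS replicates 1 or 2 it called 12 or 10. Without Loop replicates 1 or 3 it called 15 or 13.

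The fragment most enriched in HRS, 85645212 to 85646223 (1011 bp), held 43, 26 and 11 counts in HRS, 3, 7 and 5 in Loop and 5, 13 and 6 in D0, D12 and D21. Its lowest HRS count, 11 in replicate 3, was above its highest Loop count and under the count of D12. HRS replicate 3 was also the shallowest library, and these are raw counts. The fragment's mean level was 0.537 CPM in HRS (SD 0.279), 0.081 in Loop (SD 0.032) and 0.140 in input (SD 0.079). Its log2 of 2.49 ± 0.55 was 1.99 ± 0.52 with length corrected (adjusted p = 0.0229). The next 4, of 949 to 1646 bp, had log2 ratios of 2.15 to 2.47. With length corrected they were 1.66 to 1.98 and none was called (adjusted p = 0.0506 to 0.151). The fragment at 89646596, among these 4, had an uncorrected log2 of 1.87 without HRS replicate 3 and lost its call (adjusted p = 0.0966). The fragment lowest in HRS, 88310845 to 88310956 (111 bp), held 2, 2 and 1 counts in HRS, 17, 35 and 22 in Loop and 8, 19 and 23 in input. Its log2 was -3.66 ± 0.68, or -2.56 ± 0.64 with length corrected (adjusted p = 0.0174). The next 4 lowest, of 48 to 147 bp, had -3.03 to -2.78, and all were called with length corrected too. The 5 highest fragments passed the filter on low counts through HRS alone, and the lowest, at 88310845, through Loop alone. Their ratios and p-values are therefore descriptions of fragments admitted by the group where they are high.

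The 3 fragments with the most input counts all lay within the first 0.4 Mb of the cluster. The fragment at 85412357 to 85412744 (387 bp) held 115, 107 and 99 counts in input, 104, 105 and 94 in HRS and 80, 68 and 86 in Loop, and was not called (log2 0.55 ± 0.31, adjusted p = 0.22). The fragment at 85543959 to 85547962 (4003 bp) was not called either (adjusted p = 0.77). The third, at 85268467 to 85268647 (180 bp), held 46, 54 and 19 counts in HRS and 118, 80 and 138 in Loop. It was lower in HRS with a log2 of -1.38 ± 0.34 (adjusted p = 0.0014), and of -1.0 with length corrected (adjusted p = 0.021).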

How the data were processed

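HRS, Loop and input DNA of E14Tg2a cells were measured by counting short tags at StyI sites. Per the labels' protocols, an adaptor with a site for MmeI was ligated to the StyI ends and cut to tags of uniform length. The deposited values are whole-number counts per StyI fragment, made by the authors. CASAVA 1.8.2 and mm9 are named in the submitters' processing notes. For 3 points no value is given in the sources used here. They are the aligner, how tags with several matches were handled, and the base from which coordinates count. Repeat tables were left out.

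Fragments of 21 chromosomes were used, without the last interval of each. They were summed by midpoint into windows of 100 kb, bins of 10 kb and regions (the cluster, each flank, and the rest of the genome in 2 Mb steps). Groups came from the sample titles. Each pair of groups was fitted over the whole genome by the quasi-likelihood test of edgeR 4.0.16 (R 4.3.3) after TMM scaling and filterByExpr (minimum count 10). Benjamini-Hochberg adjustment ran over all features, and 0.05 was the threshold. SE is |log2 ratio| over the root of F. The length correction used 20 length classes: each fragment's count summed over 9 libraries was multiplied by the library's share of all counts in that class, and the sum per feature was the expected count, used as an offset. CPM uses library totals. Same-numbered HRS and Loop libraries deviated together from their group means (r = 0.432, 0.199 and 0.470 over 25400 windows), so the numbers were taken to pair them. The fits held no pairing term except where a block is named, so their p-values do not use the pairing.

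Named windows were the 3 highest and lowest of the cluster by corrected ratio and the extremes of each flank. Named bins (3) and fragments (5) were those with the largest called ratios in each direction of 1 sign in every pair, plus the 3 fragments with most input counts. The promoter items were chosen after their values were seen. Members, lists and rules were chosen with earlier results of these data known. The fits of windows, bins and regions were tested on simulated counts, and those of single fragments were not. The simulated libraries were independent, with neither an outlying library nor pairs, so they cannot speak for the calls under those conditions. Their outcome is not given here. Alternatives were other scalings, filters, thresholds, flanks and borders, fragments over 200 bp, DESeq2 1.42.0, the block and each library left out. Promoter sequences are from RefSeq (GRCm38.p6). The labels name no molecular identifiers, so counts may include PCR copies.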

Additional observations from a re-analysis of the deposited data

How the results depend on the processing

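Counts of calls moved with several settings. Where no share over the genome is given above for a setting, a change in the cluster alone cannot be told from a change over the genome. HRS over Loop gave 10 higher and 3 lower windows, which became 2 and 2 with length corrected, 2 and 0 with only fragments over 200 bp, 3 higher with library totals, and 16 and 1 with all 9 libraries in 1 fit. An adjusted p of 0.01 left 5 and 0, and 0 and 0 with length corrected as well (an alternative chosen after the data were seen). Without both libraries of replicate 3 (also chosen then) 19 were higher, or 6 higher and 1 lower with length corrected. The replicate block gave 5 lower, and 2 higher with length corrected. Leaving out 1 library gave 0 to 17 higher and 0 to 4 lower. HRS over input gave 6 and 0, which became 0 and 3 with library totals, 2 lower with DESeq2, and 2 higher at an adjusted p of 0.01 with or without length corrected. Leaving out 1 library, again over both kinds of fit, gave 1 to 9 higher and 0 to 2 lower. Without D12 and with length corrected 3 were higher. Loop over input gave 1 higher and 8 lower, which became 0 and 0 with length corrected, at 0.05 and 0.01, and with only fragments over 200 bp. Leaving out 1 library, over both kinds of fit, gave 0 to 2 higher and 0 to 11 lower.

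At 10 kb the counts of 45 and 51 became 7 and 11 with length corrected and 5 and 29 at an adjusted p of 0.01, with 20 to 60 and 37 to 48 when 1 library was left out, or 2 to 10 and 5 to 14 with length corrected too. For fragments 24 and 204 became 2 and 18 with length corrected, 4 higher at 0.01, and 10 to 37 and 165 to 193 without 1 library.

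As 1 region the cluster's log2 of HRS over Loop, 0.02, was -0.0644 with length corrected at either threshold, -0.0166 over 200 bp, -0.0007 with library totals and -0.0680 with length corrected and the block. This block fit had an SE of 0.0347 and an edgeR adjusted p of 0.0985, against 0.0602 and 0.432 without the block. The log2 was 0.0646 without both libraries of replicate 3, or -0.0118 with length corrected, and -0.0231 to 0.0959 without 1 library. With length corrected as well it was -0.1041, -0.0986 and 0.0065 without HRS replicates 1, 2 and 3, and -0.0723, -0.0745 and -0.0880 without Loop replicates 1, 2 and 3. HRS over input ran from -0.1206 to 0.0184 without 1 library, and up to 0.0221 with length corrected. Loop over input, -0.11, was 0.0170 with length corrected at either threshold and -0.1559 to -0.0540 without 1 library. With length corrected as well it was 0.0115, 0.0168 and 0.0262 without Loop replicates 1, 2 and 3, and -0.0235, 0.0081 and 0.0678 without D0, D12 and D21. Against the flanks the log2 differences ran from -0.361 to -0.146, -0.516 to -0.301 and -0.230 to -0.0683 without 1 library, and Loop from input was 0.0218 with length corrected. Among named features 3 results changed sign: the fragment at 88608551 (0.49 with length corrected, and -2.02 to 0.26 without 1 library) and that at 85543959 (-0.39 to 0.17 without 1 library).

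The flanks stayed higher in HRS in every setting run. The block was also fitted to 10 kb bins and single fragments, and the counts of calls from those fits are not given here. Pairs rest on correlated deviations only. HRS replicate 2 correlated more with Loop replicate 1 (r = 0.337) than with Loop replicate 2 (r = 0.199), so the pairing is uncertain. Low counts limit the cluster: windows held medians of 448 to 880 counts, and most fragments could not be tested singly.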
